A study of Mus musculus with 6 samples.

Results

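The Onecut, HNF4 and FOXA factors are DNA-binding proteins that set up liver, gut and pancreas in the embryo and keep many of their genes switched on in the adult. The 7 genes Onecut1, Onecut2, Hnf4a, Hnf4g, Foxa1, Foxa2 and Foxa3 were chosen by symbol, out of 18193 genes read on the array. All 7 had probe sets that the platform annotation lists with 1 gene, 15 in all, and each gene is represented by its brightest probe set, judged by the mean of the 6 arrays. Onecut2 was put among them because it read lower with CMPF in these same arrays, so its difference between the groups is a description and carries no test. The other 6 genes entered as relatives of the same families.

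The samples were islets isolated from male CD1 mice aged 8 weeks and left overnight in culture medium. CMPF islets received 200 uM CMPF for 24 hours, and vehicle islets received 0.1% ethanol for the same 24 hours. CMPF is a circulating breakdown product of furan fatty acids. RNA was read on Affymetrix 3′ expression arrays, on which 1 or more sets of short probes read each gene, and levels are log2 signals normalized by the authors with RMA. Each group held 3 arrays, numbered 1 to 3, and "pair" means the CMPF and vehicle arrays that share a number. Whether each number stands for its own mice, and how many were pooled, is not in the labels, so the p-values reflect variation among these samples that may be technical.

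Onecut proteins carry a cut domain and a homeodomain, and Onecut1 was first purified from liver as HNF6. FOXA proteins, once named HNF3, use a forkhead domain to bind sites in closed chromatin, and for that reason are called pioneer factors. HNF4 proteins are nuclear receptors that bind DNA as dimers, and loss of one copy of human HNF4A causes a monogenic diabetes of the young. In the embryonic mouse pancreas Onecut1 acts upstream of Pdx1 and Neurog3, and the factors are known to regulate each other's genes in liver and islets.

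The promoter stretches below are those in which the search described here found a match. Searched windows without a match are not printed. The stretches can be set beside the signals of Foxa2, Hnf4a and Foxa1. RefSeq (build GRCm38.p6) gave 8 start windows for 5 of the 7 genes, namely Onecut1, Hnf4a, Foxa1, Foxa2 and Foxa3. The 250 bases before each start were searched on both strands for the Onecut core sequences ATTGATT and ATTGACT, the FOXA sequences TGTTTAC and TGTTTGC, and the HNF4 sequences CAAAGTCCA and CAAAGGTCA. None of these 6 words overlapped another in the stretches printed. Capitals mark the match, each stretch reads 5′ to 3′ on the strand of its gene, and matches of the reverse complement appear as AATCAAT or GTAAACA. Outermost means among the windows searched for that gene. The Hnf4a stretch stops after 204 bases, where the annotated gene begins, and so ends short of the start of its window at 163506857. Its match begins 60 bases before that start.
Foxa2, outermost start, chr2:148046970-148047219, minus strand: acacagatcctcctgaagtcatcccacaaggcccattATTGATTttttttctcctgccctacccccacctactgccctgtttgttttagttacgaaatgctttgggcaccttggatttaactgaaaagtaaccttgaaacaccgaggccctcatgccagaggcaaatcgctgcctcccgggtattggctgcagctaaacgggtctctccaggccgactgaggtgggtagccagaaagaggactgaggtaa
Hnf4a, outermost start, chr2:163506607-163506810, plus strand: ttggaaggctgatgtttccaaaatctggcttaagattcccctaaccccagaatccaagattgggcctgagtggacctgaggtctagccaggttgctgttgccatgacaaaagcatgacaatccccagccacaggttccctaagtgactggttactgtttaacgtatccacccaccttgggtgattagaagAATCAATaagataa
Foxa2, inner start, chr2:148045603-148045632, minus strand: tgtgatcaaatATTGACTtgcggcgcctcc
Foxa1, chr12:57546234-57546263, minus strand: tatactgctttGTAAACAaagtgagggcca

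The Onecut word ATTGATT stood in 2 of the 8 windows, the outermost ones of Foxa2 and Hnf4a, and in 2.62% of all 32851 promoter windows in the table. ATTGACT stood in 1 of the 8 windows, at an inner Foxa2 start, and in 1.61% of all windows. The FOXA word TGTTTAC stood in 1 window, that of Foxa1, and in 3.17% of all windows. TGTTTGC stood in none of the 8 and in 4.30% of all windows, and the HNF4 words CAAAGTCCA and CAAAGGTCA stood in none of the 8 and in 0.384% and 0.426% of all. A match is a string of letters, not a binding site.

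Before the single genes, the state of the arrays was checked. The hormone genes Ins2, Gcg, Sst and Ppy lay near the top of the scale on all arrays, which goes with the islet label. Acinar markers, genes of the enzyme-secreting tissue around the islets, were bright too. With limma and Benjamini-Hochberg adjustment, 0 of 18193 genes (0%) passed an adjusted p of 0.05 (smallest adjusted p = 1.00), and 205 genes had an unadjusted p under 0.05. The median gene level was 6.42, the lower quartile 4.53 and the upper quartile 8.19, all as log2 signal. Across all genes the replicate number took a median of 59.7% of the sum of squares over the 6 arrays, and the treatment 7.58%. The number has more levels than the treatment, so it tends to take a larger share even where neither has an effect.

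Onecut2, a relative of Onecut1 found in liver, pancreas and neural tissue, had the lowest CMPF signal relative to vehicle of the 7 genes. Its brightest probe set read 3.82, 4.38 and 3.98 with CMPF, against 5.11, 5.20 and 4.37 with vehicle (log2 signal, replicates 1, 2 and 3). The groups touched at 1 point, since vehicle 3 lay at the level of CMPF 2. CMPF arrays averaged 4.06 ± 0.29 and vehicle arrays 4.89 ± 0.45 (SD, n = 3 each), a difference of -0.83 (SE 0.242), or 1.78-fold lower on the linear scale. The signal was lower in all 3 pairs, by -1.29, -0.82 and -0.39, and 11.1% of all genes were lower in all 3 pairs. In size, 8 of 18193 genes had a more negative difference. These figures restate the choice of the gene and support nothing.

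The other Onecut2 probe sets read the same RNA, so they are no independent check, and they differed in size. The second set read 4.34, 3.85 and 4.27 with CMPF, against 4.80, 4.34 and 4.08 with vehicle, a difference of -0.25 (SE 0.202). It was lower in pairs 1 and 2 and higher by 0.19 in pair 3. The third set read 3.39, 4.08 and 4.04 with CMPF, against 4.33, 4.30 and 4.11 with vehicle, a difference of -0.41 (SE 0.187). It was the 1 set of the 15 whose groups did not overlap, with all 3 CMPF arrays below all 3 vehicle arrays. Over all 45037 probe sets, 2.46% had CMPF below vehicle without overlap. Averaging the 3 sets gave a difference of -0.50, against -0.83 for the brightest alone.

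All 3 Onecut2 sets were dim, with means of 4.48, 4.28 and 4.04 below the lower quartile of gene levels at 4.53. No detection calls were used, so whether these sets were detected at all is not known. Among the 1223 genes within 0.25 of the level of Onecut2, 0 had a more negative difference. That rank again restates the choice of the gene and supports nothing. A measure of RNA ends also moved between the groups. The log2 signal of the 3′ Gapdh control minus that of the 5′ control was 0.0171, 0.0166 and -0.0162 with CMPF, against -0.0267, -0.0894 and -0.0452 with vehicle. Every CMPF array lay above every vehicle array, while the Actb controls differed by 0.70 to 0.84 with overlapping groups. The part of RNA ends in the Onecut2 difference was not tested.

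**Figure D1:**
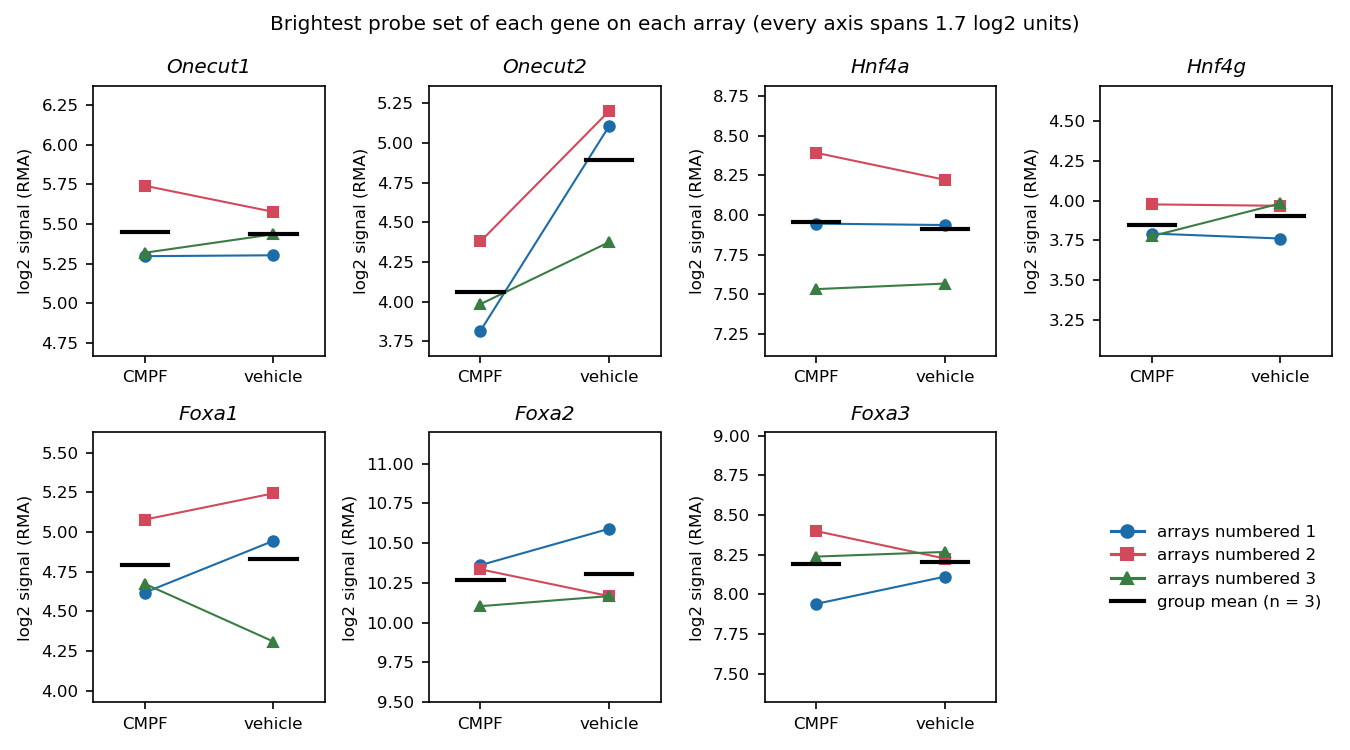
Log2 signal of the brightest probe set of each of the 7 genes (y axis, RMA values) on the 3 CMPF and 3 vehicle arrays, with lines joining arrays of the same number and black bars at the group means. Onecut2 lies lower with CMPF in each pair (4.06 against 4.89 on average), while the means of the other 6 genes lie within 0.06 of each other between groups.

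Onecut1, which in adult pancreas is best known from duct and acinar cells, did not move with CMPF beyond the spread of the arrays. It read 5.30, 5.74 and 5.32 with CMPF, against 5.30, 5.58 and 5.44 with vehicle. The highest value of each group was on the array numbered 2, and the ranges overlapped almost fully. The difference was 0.014 (SE 0.144), with a 95% interval from -0.32 to 0.35 (limma adjusted p = 1.00). Its dimmer set read 3.18, 3.66 and 3.03 with CMPF, against 3.25, 3.03 and 3.08 with vehicle, so that CMPF 2 alone stood above the rest. The brighter set differed by -0.0056, 0.16 and -0.12 in pairs 1, 2 and 3.

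Hnf4a, the nuclear receptor most tied to beta cell function, was brighter and also differed by less than the spread of the arrays. The brightest of its 4 probe sets read 7.95, 8.39 and 7.53 with CMPF, against 7.94, 8.22 and 7.57 with vehicle. Arrays of the same number lay within 0.17 of each other, while arrays of 1 group spanned over 0.6. The difference was 0.048 (SE 0.243), with a 95% interval from -0.52 to 0.62 (limma adjusted p = 1.00). With the replicate number as a block the SE was 0.0820, and the adjusted p was 0.981. The replicate number took 97.4% of its sum of squares over the 6 arrays, where the median gene had 59.7%.

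The remaining Hnf4a probe sets showed differences of either sign. The second read 6.36, 6.76 and 6.27 with CMPF, against 7.10 on vehicle 2 and 6.28 and 5.98 on vehicle 1 and 3, a difference of 0.014. The third differed by 0.081 and the dimmest by -0.13. The second and the dimmest, like the first, were highest on an array numbered 2 in each group, whereas the third was lowest there. None had an unadjusted p under 0.05, a cut that 1.13% of all genes passed in the gene fit. The outermost Hnf4a promoter, with the Onecut word printed above, belongs to a start known to be used in beta cells. The deposited values do not separate transcripts from different starts.

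Hnf4g, the close relative of Hnf4a that is best known from intestine and kidney, was dim on all 3 of its probe sets. Its brightest set read 3.79, 3.98 and 3.78 with CMPF, against 3.76, 3.97 and 3.98 with vehicle. The groups overlapped, and the whole range over 6 arrays was 0.22. The difference was -0.055 (SE 0.104), with a 95% interval from -0.30 to 0.19 (limma adjusted p = 1.00). The second set read 3.54, 3.37 and 3.59 with CMPF, against 3.48, 2.95 and 3.56 with vehicle. It was the 1 set of the 12 outside Onecut2 that was higher in all 3 pairs, where 12% of all probe sets were. The third set differed by 0.19, with pairs at -0.40, 0.46 and 0.50.

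Foxa2, needed in mouse beta cells for normal insulin release, gave the brightest signal of the 7, above 10 on every array. It read 10.36, 10.34 and 10.10 with CMPF, against 10.59, 10.17 and 10.17 with vehicle. Vehicle 1 was the highest array and CMPF 3 the lowest, with the other 4 between. The difference was -0.041 (SE 0.143), with a 95% interval from -0.38 to 0.29 (limma adjusted p = 1.00). Its promoters held both Onecut words printed above, and its pairs differed by -0.23, 0.17 and -0.063 while Onecut2 was lower in all 3. Whether the Onecut2 and Foxa2 signals are linked was not tested.

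Foxa1, which shares many targets with Foxa2 in alpha and beta cells, was dim and variable. It read 4.62, 5.08 and 4.67 with CMPF, against 4.94, 5.24 and 4.31 with vehicle. The vehicle arrays spanned 0.93 and enclosed all 3 CMPF arrays. The difference was -0.043 (SE 0.243), with a 95% interval from -0.61 to 0.53 (limma adjusted p = 1.00). Its pairs differed by -0.33, -0.17 and 0.36, and the sign of the mean difference turned when CMPF 1, CMPF 3, vehicle 1 or vehicle 2 was left out.

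Foxa3, best known from liver, gave 7.94, 8.40 and 8.24 with CMPF, against 8.11, 8.23 and 8.27 with vehicle. The CMPF arrays held both the lowest and the highest value. The difference was -0.0092 (SE 0.130), with a 95% interval from -0.31 to 0.30 (limma adjusted p = 1.00). Among the 12 probe sets outside Onecut2, differences ran from -0.13 to 0.19. In the fit over all probe sets, 0 of these 12 had an unadjusted p under 0.05, beside 1.13% of all genes in the gene fit. Without overlap were 0 of the 12, where 4.52% of all genes were, in either direction. Beside shares this low, 0 of 12 says little about these factors. Of the 6 genes, 0 had an unadjusted p under 0.05, where 1.13% of all genes did, and 0 did with the replicate block, where 3.8% of all genes did. The bounds of the 6 intervals lay between 0.19 and 0.62 from 0. These intervals are from the fit without the replicate block, and differences inside an interval could not be told from 0 in that fit. With the block the SE was smaller for each of the 6 genes, from 0.0820 for Hnf4a to 0.140 for Foxa1.

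**Figure D2:**
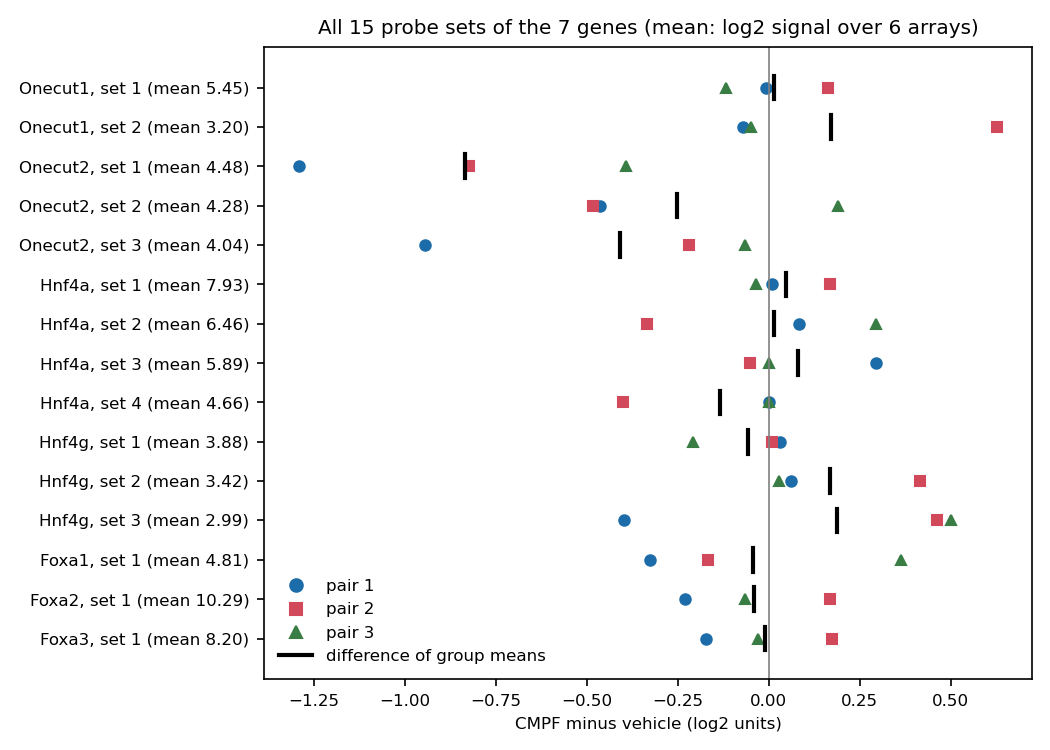
CMPF minus vehicle in log2 units (x axis) for all 15 probe sets, numbered by falling mean within each gene, with 1 marker per pair and a black bar at the difference of group means. The 3 Onecut2 sets have the lowest bars (-0.83, -0.25 and -0.41), and the bars of the other 12 sets lie between -0.13 and 0.19.

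The arrays numbered 2 carried the highest signal of several of these genes in both groups. Hnf4a, Foxa1 and Onecut1 were each highest on CMPF 2 among CMPF arrays and on vehicle 2 among vehicle arrays. Foxa2 did not share this, being highest on the arrays numbered 1 in both groups. Onecut2 was also highest on the array numbered 2 within each group, at 4.38 with CMPF and 5.20 with vehicle. For 6 of the 7 genes the number took more of the sum of squares than the treatment did, which its larger count of levels favours. For Onecut2, picked for its fall, the treatment took 64.5% and the number 23.0%.

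Markers of exocrine cells were also highest on the arrays numbered 2. The acinar list, with 19 of 22 genes measured, had a mean log2 level of 11.50, 12.15 and 11.19 with CMPF, against 11.24, 12.10 and 10.35 with vehicle. These means are the summed level divided by the number of genes, and no value in the table was 0. The brightest acinar markers, Cela3b, Ctrb1 and Prss2, all proteases, were highest on CMPF 2 and vehicle 2. Between the groups 18 of 19 differences of the list were positive, with a median of 0.43, beside 0.0018 for all genes. The array means of the groups overlapped. Markers of 1 cell type can rise and fall together, so counts over the list are not separate observations. The median was 0.27, 0.056 and 0.93 in pairs 1, 2 and 3. Of the 19, 14 were higher in all 3 pairs, where 11.8% of all genes were, 0 had an unadjusted p under 0.05 (1.13% of all genes), and 11 did with the replicate block (3.8% of all genes). The duct list, with 15 of 17 genes measured, averaged 7.85, 8.53 and 8.20 with CMPF, against 8.03, 8.67 and 7.88 with vehicle. It was likewise highest on the arrays numbered 2. Hnf4a and Onecut1 are known in acinar and duct cells as well as islets, and in whole islet preparations more cells of a type and more RNA per cell cannot be told apart.

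With the acinar mean of each array as a covariate, the Hnf4a difference turned to -0.14 and the Onecut1 difference to -0.053, with 0 genes past the threshold. Foxa1 differed by -0.24 (SE 0.106) in that fit, against -0.043 without the covariate. The Onecut2 difference was -1.02 in that fit. Beta cell markers, 10 of 13 measured, averaged 11.63, 11.10 and 11.06 with CMPF, against 11.55, 11.14 and 11.27 with vehicle. They were highest on the arrays numbered 1, as Foxa2 was. Alpha cell markers, 6 of 8 measured and Cltrn among them, stayed between 8.89 and 9.01 with CMPF and between 8.85 and 9.03 with vehicle. Cltrn is described below as a protein of beta cells, so these averages may not be of alpha cells alone. The 5 delta and PP cell markers averaged 10.22 to 10.30 with CMPF and 10.15 to 10.31 with vehicle.

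Stellate markers, all 10 measured, averaged 8.24 to 9.44 with CMPF and 8.65 to 9.14 with vehicle, highest on the arrays numbered 3. The 8 endothelial markers averaged 5.70 to 6.63 with CMPF and 5.87 to 6.34 with vehicle. The 8 macrophage markers averaged 7.13 to 7.41 with CMPF and 7.15 to 7.46 with vehicle. In all of these lists the groups overlapped. The part of cell makeup in the signals of the 7 genes was not tested beyond the acinar covariate.

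**Figure D3:**
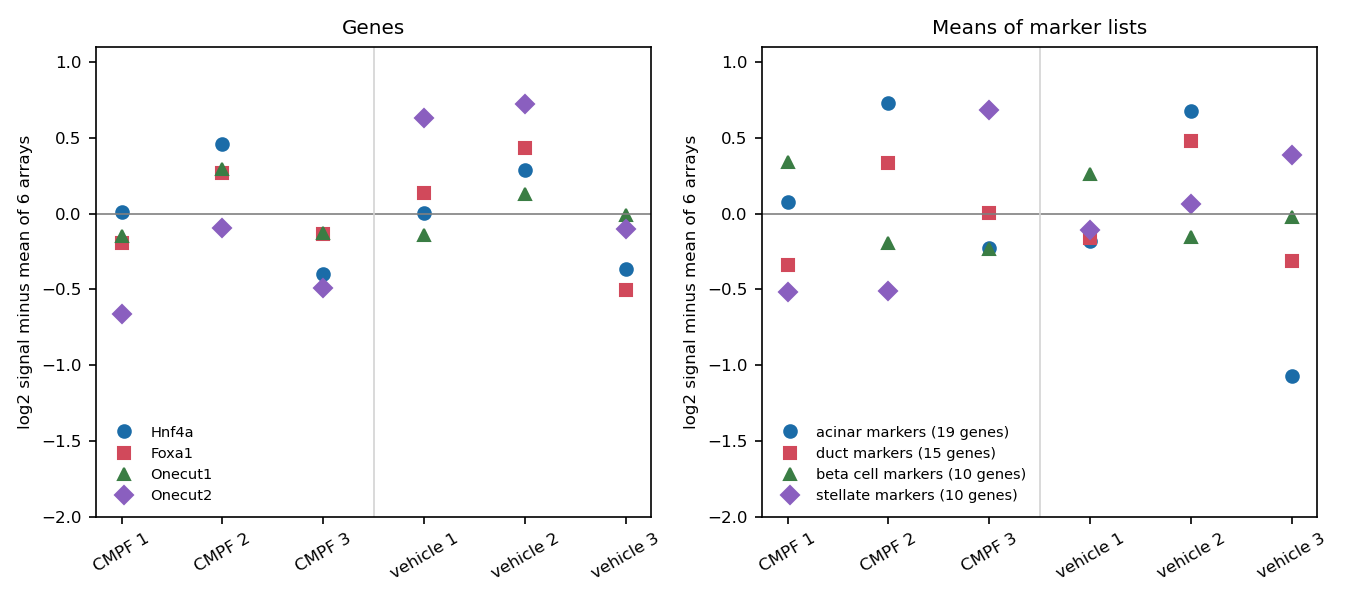
Log2 signal minus the mean over the 6 arrays (y axis) for Hnf4a, Foxa1, Onecut1 and Onecut2 on the left and for the means of 4 marker lists on the right, by array. Hnf4a, Foxa1, Onecut1, acinar markers and duct markers are each highest within their group on the array numbered 2, and Onecut2 separates the groups except for vehicle 3 at -0.10, next to CMPF 2 at -0.098.

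By pattern over the 6 arrays, the 5 genes most like Onecut2 among 9097 genes at or above the median level were Cul5, Sft2d3, Dapl1, Pspc1 and Gap43. Likeness was the root mean square distance between log2 values centred on each gene's mean, which ran from 0.326 for Cul5 to 0.339 for Gap43. All 5 were lower with CMPF on average, a direction that the likeness to Onecut2 fixes. Cul5, a scaffold of ubiquitin ligases, read 7.45, 7.52 and 7.44 with CMPF, against 8.38, 7.78 and 7.62 with vehicle. Among the other 6 members the distance was smallest for Foxa1, at 0.402, and largest for Foxa3, at 0.510. Onecut2 itself had an SD of 0.569 over the 6 arrays, and a gene that did not vary would lie a little below that distance. The larger member distances thus show little likeness.

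Next, other factors of the liver, gut and pancreas network were read from a list of 20, of which 18 were measured. Of the 18, 9 differed upwards and 9 downwards, with a median of -0.0041 beside 0.0018 for all genes. With CMPF 4 were higher in all 3 pairs and 1 was lower in all 3, where 11.8% and 11.1% of all genes were. None had an unadjusted p under 0.05, where 1.13% of all genes did, and 3 did with the replicate block, where 3.8% of all genes did. The median moved to 0.11 without CMPF 1, 0.069 without CMPF 3, 0.087 without vehicle 2 and 0.075 without pair 3.

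The 4 related factors with the smallest p were Prox1, Gata4, Cebpa and Nr0b2. Prox1, a homeobox factor of liver, pancreas and lymphatic vessels, read 7.002, 6.92 and 7.36 with CMPF, against 7.68, 7.22 and 7.37 with vehicle. It was lower in all 3 pairs, with pair 3 almost level, and the difference was -0.33 (SE 0.160, limma adjusted p = 1.00), or -0.20 without vehicle 1. Gata4, a zinc finger factor of the early pancreas, read 5.13, 5.56 and 4.90 with CMPF, against 4.74, 5.02 and 4.85 with vehicle. It was higher in all 3 pairs, by 0.32 on average (SE 0.174, limma adjusted p = 1.00), and by 0.14 without CMPF 2.

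Nr0b2, a nuclear receptor without a DNA-binding domain that represses HNF4, read 5.26, 5.53 and 5.09 with CMPF, against 4.98, 5.42 and 4.70 with vehicle. It too was higher in each pair, and the groups overlapped (difference 0.26, SE 0.196). The difference was 0.093 without vehicle 3, 0.14 without CMPF 2 and 0.45 without vehicle 2. Cebpa, a liver and fat factor, differed by 0.36 (SE 0.253), with CMPF 2 at 5.91 above every other array, by 0.099 without CMPF 2 and by 0.63 without CMPF 3. Onecut3, the third Onecut gene, was dim at 3.45, 3.53 and 3.25 with CMPF, against 3.43, 3.35 and 3.44 with vehicle. Its difference was 0.0030 (SE 0.101). Nr0b2, Gata4 and Cebpa were all highest on the arrays numbered 2, as the acinar markers were.

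Genes that these factors are described elsewhere to bind or drive, in liver or islets, formed a list of 30, of which 26 were measured. Negative differences were found for 19 of them and positive ones for 7, where 49.3% of all genes were negative. The median was -0.042, beside 0.0018 for all genes, and -0.15 without CMPF 1. Of the 26, 4 were lower and 0 higher in all 3 pairs, where 11.1% and 11.8% of all genes were, and 0 were without overlap, where 4.52% of all genes were. An unadjusted p under 0.05 was found for 0 of them (1.13% of all genes), and for 2 with the replicate block (3.8% of all genes).

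In the target list the smallest p belonged to Cdh17, Cltrn, Ttr and Alb. Cdh17, a cadherin of gut epithelium, read 4.34, 4.85 and 4.95 with CMPF, against 5.44, 6.05 and 4.77 with vehicle. It was lower in pairs 1 and 2 and higher in pair 3 (difference -0.71, SE 0.317, limma adjusted p = 1.00), and the difference was -0.40 without vehicle 2. Cltrn, a membrane protein of beta cells, was also counted in the alpha cell marker list above. Its signal read 12.63, 12.52 and 12.98 with CMPF, against 12.87, 12.93 and 13.04 with vehicle. It was lower in each pair, and the difference was -0.24 (SE 0.134), or -0.14 without CMPF 2 and -0.37 without CMPF 3.

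Ttr, the thyroid hormone carrier whose promoter is a classic site of FOXA and HNF4 binding, read 13.58, 13.41 and 13.42 with CMPF, against 13.72, 13.60 and 13.52 with vehicle. It was lower in each pair by a small amount (difference -0.14, SE 0.096, or -0.088 without vehicle 1), close to the highest value in the table at 14.73. Alb, serum albumin, read 6.22, 5.80 and 5.66 with CMPF, against 8.49, 5.62 and 6.17 with vehicle. Vehicle 1 stood far above the other 5 arrays, and the difference was -0.86 (SE 0.669), against 0.0024 without vehicle 1 and -1.44 without vehicle 2. Beta cell targets of FOXA2 and HNF4A showed smaller differences. Abcc8 and Kcnj11, subunits of the ATP-sensitive potassium channel, differed by 0.0010 (SE 0.113) and -0.045 (SE 0.088), Hadh by -0.034 (SE 0.157) and Pdx1 by -0.025 (SE 0.150).

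**Figure D4:**
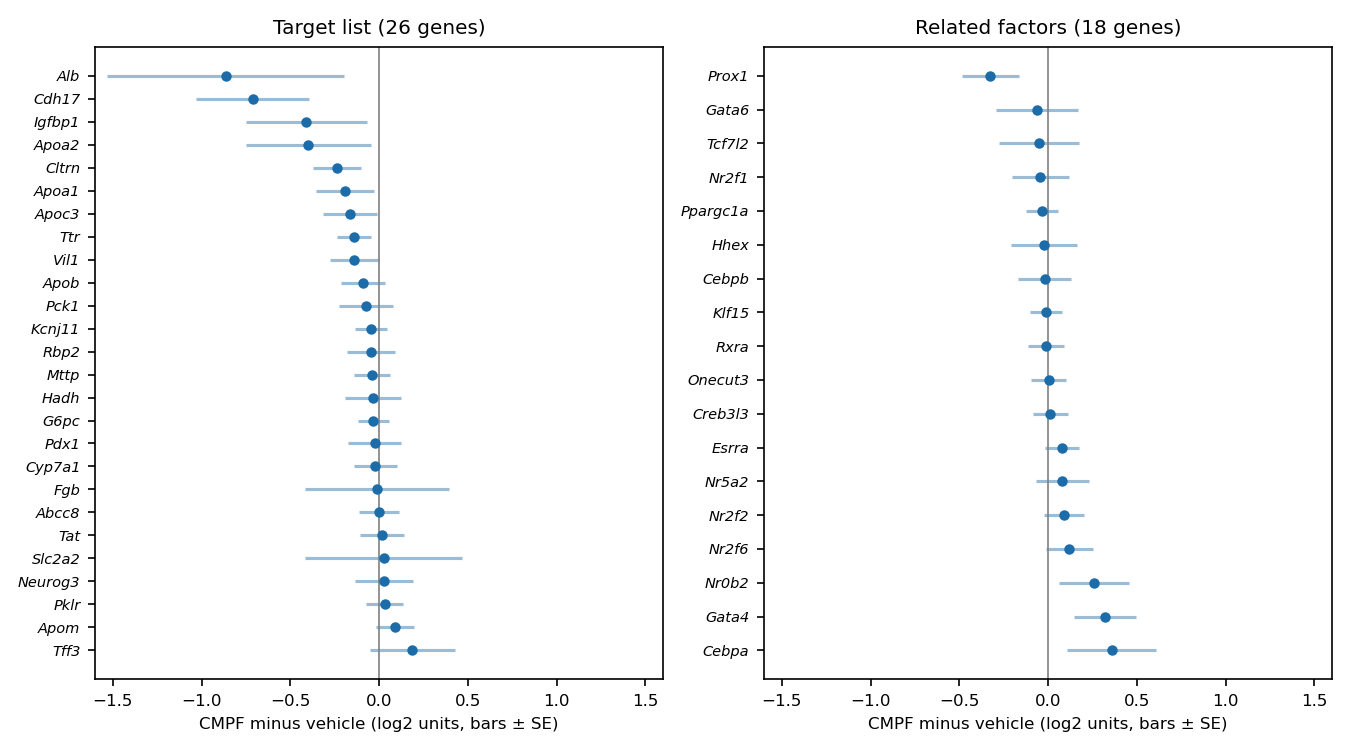
CMPF minus vehicle in log2 units (x axis, bars ± SE from limma) for the 26 measured target genes on the left and the 18 related factors on the right, ordered by difference. Targets run from -0.86 for Alb to 0.19 for Tff3, and related factors from -0.33 for Prox1 to 0.36 for Cebpa.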

How the data were processed

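Per the submitters' processing notes, the authors deposited log2 values from RMA, run in Affymetrix Expression Console 1.1; that the scale is log2 was read from the range of the values. RMA corrects background, gives all arrays 1 distribution and summarises probes, and tends to compress dim differences. Array medians lay between 5.08 and 5.15. Of 45101 probe sets, 64 controls were left out and 34945 listed 1 gene. CMPF was compared with vehicle with limma 3.58.1 in R 4.3.3, two-sided, over 18193 genes, with no filter and a threshold of 0.05 after Benjamini-Hochberg adjustment, and the code was tested on simulated data. The number of arrays, 3 in each group, limits the precision. The genes, the lists and the tests were chosen with earlier results of these data known. Named list genes are the 4 with the smallest p in each of the related and target lists; Onecut3, Abcc8, Kcnj11, Hadh and Pdx1 were named for their role, after their values were seen. Replicate numbers were taken to pair arrays, from the data and not the labels: arrays sharing a number had deviations from their group means that correlated at 0.488 to 0.638, and other cross-group pairings at -0.555 to 0.0885. Deviations cancel out within a group, so positive values at shared numbers force lower ones elsewhere. The other pairings are therefore no separate support. Alternatives covered the replicate block, arrays and pairs left out, 2 other normalizations, probe set means, 2 filters on dim genes, array weights and an acinar covariate.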

Additional observations from a re-analysis of the deposited data

How the results depend on the processing

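The number of genes called was 0 under each of the 17 alternatives, including the replicate block (smallest adjusted p = 0.979), and the block changed no other call; 692 genes had an unadjusted p under 0.05 with it and 205 without. Onecut2 stayed negative under all 15 alternatives that gave it a value, from -1.09 to -0.50. That sign restates the choice of the gene, since each alternative reused the arrays it was picked from. Neither Onecut2 nor Hnf4g was left by the filters on dim genes. The filter at the median also dropped Onecut1 and Foxa1. The other 6 genes had differences so small that their sign turned, and the cause was not tested beyond the fewer arrays in some fits. For Onecut1 the difference ran from -0.13 (without CMPF 2) to 0.092 with 1 array left out, and was -0.061 without pair 2, -0.0012 with a second quantile normalization and -0.053 with the acinar covariate. For Hnf4a it ran from -0.17 (without CMPF 2) to 0.26 with 1 array left out, and was -0.013 without pair 2 and -0.14 with the acinar covariate, and the Hnf4g difference was 0.020 without pair 3 and 0.10 with probe set means. For Foxa1 it ran from -0.30 to 0.16 with 1 array left out, and was 0.099 without pair 1, 0.019 without pair 2 and 0.00049 with array weights. For Foxa2 it ran from -0.11 to 0.10 with 1 array left out and was 0.053 without pair 1. For Foxa3 it ran from -0.11 to 0.12 with 1 array left out and was 0.072 without pair 1, 0.00089 without pair 3, 0.018 with a second quantile normalization and 0.019 with array weights. The target median ran from -0.15 to -0.0089 with 1 array left out. The related factor median ran from -0.013 to 0.11 with 1 array left out, and was 0.075 without pair 3. Signal near background limits Onecut2, Hnf4g and Foxa1, since no detection calls were used here.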

Other observations

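Apoa2 and Igfbp1 of the target list, like Alb, stood high on vehicle 1; they were chosen after their values were seen. Apoa2, an apolipoprotein, read 5.71, 5.28 and 5.48 with CMPF, against 6.76, 5.28 and 5.63 with vehicle. Igfbp1, a binding protein for insulin-like growth factors, read 4.02, 3.66 and 3.67 with CMPF, against 4.94, 3.44 and 4.20 with vehicle. As for Alb, vehicle 1 was the highest array for both, and the differences of -0.40 (SE 0.351) and -0.41 (SE 0.341) did not pass in limma (adjusted p = 1.00). Without vehicle 1 they were 0.037 for Apoa2 and -0.037 for Igfbp1, and without vehicle 2 they were -0.70 and -0.79. Other plasma protein genes of the list were split. Apoa1 was highest on vehicle 1 at 6.70, with vehicle 3 next at 6.46. Apoc3 was highest there too at 3.99, with CMPF 3 next at 3.76, as was Ttr at 13.72, with vehicle 2 next at 13.60. Fgb, Apob and Apom did not share this. Fgb, a fibrinogen chain, read 7.05, 7.56 and 8.67 with CMPF, against 7.34, 7.79 and 8.19 with vehicle, so that vehicle 1 was the lowest vehicle array. Apob and Apom, both of lipoproteins, were highest on CMPF 1 and CMPF 2. Vehicle 1 was also the highest array for Foxa2. Slc2a2, the beta cell glucose transporter, read 11.46, 10.27 and 9.63 with CMPF, against 10.91, 10.30 and 10.07 with vehicle, and was highest on the arrays numbered 1.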
